A study of Mus musculus with 8 samples.

Results

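Expression of 38 genes of neutrophils, eosinophils and basophils was followed in liver of C57BL/6J mouse fetuses and their mothers after maternal food restriction (FR). The genes form a list of granule proteins, oxidase subunits, receptors and regulators, and probes were matched by the gene name of the array, with older names accepted. Of the 38 genes, 36 had a probe (45 probes in all, of 41174 on the array), all 36 were tested among 21097 genes in fetal liver, and Ear2 and Cebpe had none. The FR mothers received 50% of the chow eaten by controls between gestation days 10 and 17, and control mothers ate freely. Livers were taken on gestation day 18, and all fetuses were male. Each sample was a pool of animals of 1 diet: pools of 6 mothers (1 FR pool and 1 control pool), pools of 6 fetuses (1 and 1) and pools of 3 fetuses (2 and 2). Each array carried an FR pool against its control pool, and a further array repeated the pair with the dyes exchanged, which gave 8 arrays, 3 fetal pool pairs and 1 maternal pair. The labels do not say whether fetuses of different pools shared a litter, so the spread between pool pairs may understate the spread between litters. The array descriptions carry text of another study and call the exchanged array a second pool, whereas the titles name the same pool, and the titles were followed. Pools of 6 were on slide 1 and pools of 3 on slide 2, so that pool size and slide cannot be told apart.

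Granulocytes are white blood cells that mature through a fixed series of stages and fill with granules as they do so. Primary granules, made in promyelocytes, carry myeloperoxidase and serine proteases, secondary granules, made in myelocytes, carry lactoferrin and antibacterial proteins, and tertiary granules, made later, carry gelatinase. Eosinophils and basophils branch off with granule proteins of their own. Before birth the mouse liver is a main blood-forming organ, and cells of all these stages lie among the hepatocytes, whereas adult liver holds mostly passing granulocytes and resident macrophages.

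Probes and promoters of the genes that carry the comparison are shown here because the eosinophil RNases are close relatives and because 3 primary granule genes are among those that share a promoter motif. The probe sequences below are those of the deposited arrays, with mm9 positions from the array annotation, for Ear1 at chr14:44396709-44396768 and for Ear6 at chr14:52473908-52473967.
Ear1: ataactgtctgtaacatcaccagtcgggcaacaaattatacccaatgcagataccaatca
Ear6: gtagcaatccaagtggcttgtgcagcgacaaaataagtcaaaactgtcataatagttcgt
The longest run of bases that these 2 probes share is 7 of 60. Signal from transcripts of other Ear genes on a probe cannot be told apart from its own.

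RefSeq promoters (GRCm38.p6, 250 bases before and 50 after the start, 300 in all) were found for 34 of the 38 genes, as 35 promoters, and searched on both strands. The letters GAGGAAGT, a binding sequence of the myeloid factor PU.1, occurred in 6 of 35 (17.1%), against 3.2% of 32851 promoters. They lay in Elane, Mpo, Prtn3, Itgb2l, Mmp8 and S100a8. The windows of 100 bases that hold them are given 5′ to 3′ in gene direction, with the motif in capitals, which reads ACTTCCTC where it lies on the opposite strand.
Elane, chr10:79886181-79886280, plus strand: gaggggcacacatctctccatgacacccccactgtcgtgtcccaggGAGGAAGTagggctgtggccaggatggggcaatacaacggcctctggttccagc
Mpo, chr11:87793534-87793633, plus strand: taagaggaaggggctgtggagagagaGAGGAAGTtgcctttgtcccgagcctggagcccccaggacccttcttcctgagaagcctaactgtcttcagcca
Prtn3, chr10:79879526-79879625, plus strand: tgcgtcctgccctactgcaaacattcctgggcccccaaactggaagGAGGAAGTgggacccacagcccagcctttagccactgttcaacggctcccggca
Mmp8, chr9:7558179-7558278, plus strand: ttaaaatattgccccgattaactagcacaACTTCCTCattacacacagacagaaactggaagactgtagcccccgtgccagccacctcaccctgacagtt
S100a8, chr3:90668853-90668952, plus strand: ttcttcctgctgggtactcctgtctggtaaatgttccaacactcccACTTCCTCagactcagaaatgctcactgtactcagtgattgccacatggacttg
Itgb2l, chr16:96443618-96443717, minus strand: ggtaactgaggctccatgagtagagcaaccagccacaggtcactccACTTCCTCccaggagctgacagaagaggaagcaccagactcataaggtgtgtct
The motif began 85, 224, 95, 221, 172 and 57 bases before the start in these genes, in the order given. Among them, Mpo and Prtn3 did not pass the fetal test described below, and the other 4 did. The shorter core GAGGAA, which the longer motif contains, occurred in 18 of 35 promoters (51.4%, against 28.3% of all). The C/EBP half-site pair TTNNGNAA occurred in 21 (60%, against 40.7%) and its stricter form TTNCGNAA in 0 (against 2.47%). The RUNX motif TGTGGT occurred in 9 (25.7%, against 16.8%), the GATA motif AGATAA in 7 (20%, against 11.2%) and TATAAA in 12 (34.3%, against 13.6%). These are matches of letters in a window and carry no measurement of binding.

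Most of the granulocyte genes were lower in FR fetal liver. Of the 36 genes tested, 30 fell (limma, adjusted p under 0.05), where 14.2% of all 21097 genes did, and 0 rose, where 11.4% of all genes did; 0 also rose at an unadjusted p under 0.05. The median log2 ratio of FR over control was -0.56 over the 36 genes and 0.01 over all genes tested. The ratio lay below 0 in all 3 pool pairs for 33 genes, against 30.2% of all genes, and on all 6 arrays for 29, against 18.5%. For 25 genes the 3 FR pools were all below the 3 control pools in level, against 12.5% of all genes. The 6 that did not pass were Mpo, Prtn3, Ctsg, Ms4a3, Chi3l3 and Prg2. In RNA of whole liver, fewer cells of a type and less RNA per cell cannot be told apart. The calls leaned on the pools of 6: in the pools of 3 alone, which are all of slide 2, 3 genes passed (Ear6, Mcpt8 and Prg3), where 23 of all genes were lower, although 35 of the 36 genes were still below 0 there and 30 were lower at an unadjusted p under 0.05. When the ratios of all arrays were scaled to the same spread, 0 genes passed among the 36 and among all genes, with 29 of the 36 lower at an unadjusted p under 0.05 and a smallest adjusted p of 0.0712.

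**Figure D1:**
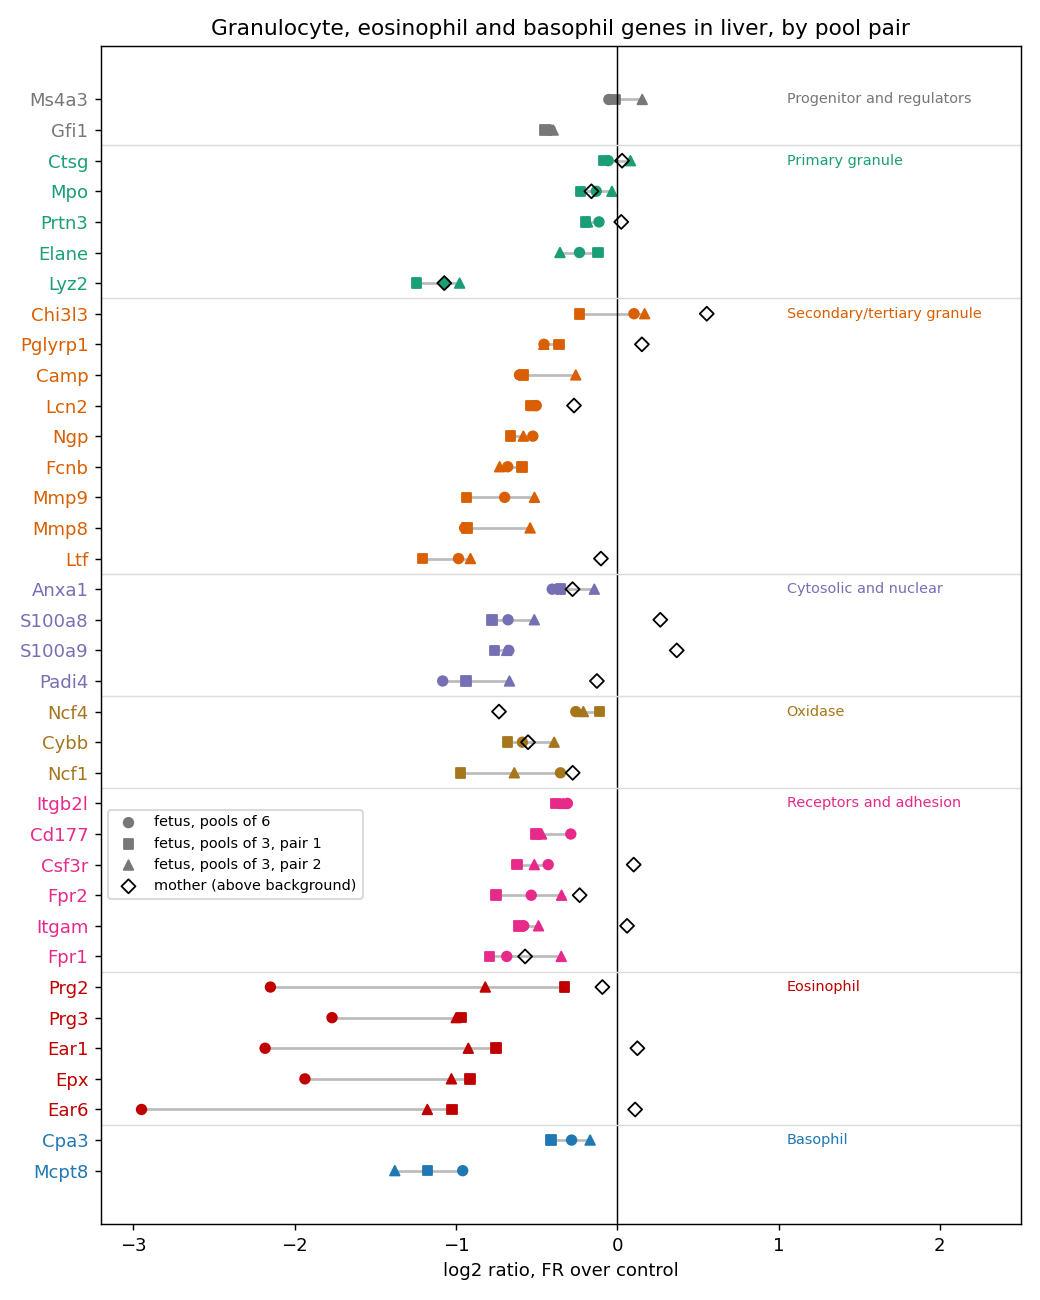
Log2 ratio of FR over control (horizontal axis) of 36 genes in the 3 fetal pool pairs (filled circle, pools of 6; square and triangle, pools of 3) and in the maternal pair where it was above background (open diamond), with genes coloured by role. Most fetal points lie left of 0, those of Mpo, Ctsg, Ms4a3 and Chi3l3 lie near 0, and the 5 eosinophil genes lie farthest left in the pools of 6.

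The proteases and the peroxidase of the primary granules were close to control, while lysozyme was far below it. Values of pool pairs are given in the order pools of 6, pools of 3 pair 1 and pools of 3 pair 2. Mpo, the peroxidase that makes hypochlorous acid, had log2 levels of 15.13, 15.00 and 15.10 in the FR pools, against 15.26, 15.23 and 15.13 in the control pools. The FR and control pools lay close together, and the mean log2 ratio was -0.13 ± 0.10 (SD, n = 3 pool pairs; adjusted p = 0.148). Ctsg, the protease cathepsin G, had ratios of -0.06, -0.08 and 0.08, on both sides of 0 (mean -0.02 ± 0.09, adjusted p = 0.824). Prtn3, proteinase 3, had -0.11, -0.20 and -0.18, all below 0 with a mean of -0.17 ± 0.05 that missed the threshold (adjusted p = 0.055). Elane, neutrophil elastase, had -0.23, -0.12 and -0.36, and it fell to 84.9% of control (mean -0.24 ± 0.12, adjusted p = 0.0455). The Elane call was lost with any pool pair left out, with the smaller offset, with median spot signal, with the deposited ratios and without loess, where the mean was -0.38 (adjusted p = 0.0667). Of the 5 genes listed under primary granules, with Lyz2 among them, 2 fell and 3 did not pass, with a median ratio of -0.17.

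Lyz2, the lysozyme that cuts bacterial cell walls, was the exception in size. Its log2 levels were 15.60, 15.29 and 15.49 in the FR pools, against 16.67, 16.53 and 16.47 in the control pools. Every FR pool was below every control pool, and the mean ratio was -1.10 ± 0.14 (adjusted p = 0.00476), or 46.8% of control. A further Lyz2 probe had a mean of -0.997. Lyz2 is made by monocytes and macrophages as well as by granulocytes. In a list of 15 monocyte and Kupffer cell genes, 5 fell and 1 rose in FR fetal liver, with a median of -0.06 and a mean log2 level per pool of 11.32 to 11.51 in FR pools, against 11.52 to 11.62 in control pools. The Kupffer cell lectin gene Clec4f (-1.05 ± 0.55) and the chemokine receptor gene Ccr2 of monocytes (-0.68 ± 0.17) fell, whereas the scavenger receptor gene Marco rose (0.69 ± 0.09). The part of these cells in the Lyz2 ratio was not tested.

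Secondary and tertiary granule genes, listed with genes of secreted proteins, fell as a group: 8 of 9 passed, and their median ratio was -0.59. Ltf, the iron-binding protein lactoferrin, had log2 levels of 14.47, 13.84 and 14.01 in the FR pools, against 15.46, 15.05 and 14.92 in the control pools. It fell to 48.9% of control (mean ratio -1.03 ± 0.15, adjusted p = 0.00483), with no overlap between the diets, and a further Ltf probe had a mean of -0.98. Mmp8, the neutrophil collagenase, had ratios of -0.95, -0.93 and -0.54, and its mean of -0.81 ± 0.23 was 57.2% of control (adjusted p = 0.00857). Mmp9, the gelatinase of tertiary granules, had -0.70, -0.94 and -0.51 (mean -0.72 ± 0.21, adjusted p = 0.00939). For both enzymes the FR pools did not reach any control pool. Fcnb, the lectin ficolin B, had -0.68, -0.59 and -0.73 (mean -0.67 ± 0.07), and the neutrophilic granule protein Ngp had -0.52, -0.66 and -0.58 (mean -0.59 ± 0.07). These 2 genes varied little between pool pairs. The siderophore-binding lipocalin Lcn2, the cathelicidin Camp and the peptidoglycan-binding Pglyrp1 also fell, with means between -0.52 and -0.42. The Camp call was lost without the pools of 6 (adjusted p = 0.0944) and without pair 1 of the pools of 3 (adjusted p = 0.061).

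Chi3l3, a chitinase-like secreted protein, was the only gene of that group that did not pass, and it is named here after its values were seen. Its ratios were 0.10, -0.23 and 0.17, on both sides of 0 (mean 0.01 ± 0.22, adjusted p = 0.927). The sign of its mean turned under several other settings.

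**Figure D2:**
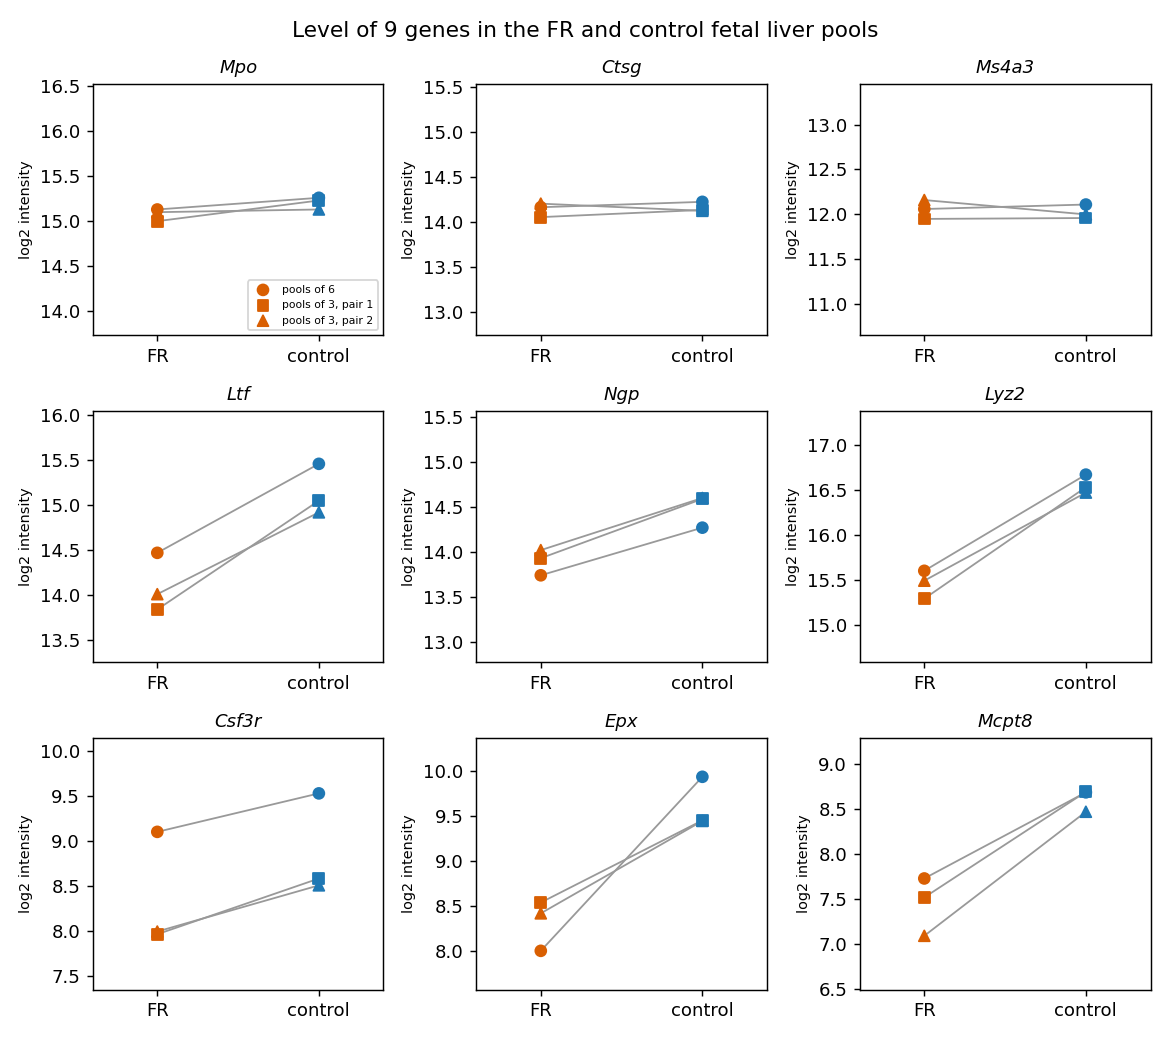
Log2 intensity of 9 genes (vertical axis, the same span in each panel) in the FR pools (orange, left) and control pools (blue, right) of fetal liver, with a line for each pool pair. The lines of Mpo, Ctsg and Ms4a3 are nearly flat, while those of Ltf, Lyz2, Ngp, Epx and Mcpt8 rise to the control pools with no overlap, and Csf3r differs more between pool pairs than between diets.

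The 4 cytosolic and nuclear genes all fell, with a median of -0.68. Padi4, the enzyme that citrullinates histones before neutrophil traps form, had ratios of -1.08, -0.94 and -0.67 (mean -0.90 ± 0.21, adjusted p = 0.00689). When spots marked as non-uniform were left out, it was read from a dimmer probe with a mean of -0.50 (adjusted p = 0.0164). S100a8 and S100a9 together form calprotectin, a calcium- and zinc-binding protein abundant in neutrophil cytosol. S100a8 had ratios of -0.68, -0.78 and -0.51 (mean -0.66 ± 0.13, adjusted p = 0.00689). S100a9 had -0.67, -0.76 and -0.69 (mean -0.71 ± 0.05, adjusted p = 0.00476). The narrow spread of S100a9 hides a split by dye. On the arrays with FR in Cy5 its ratios were 0.50, 0.01 and 0.11, and on those with FR in Cy3 they were -1.84, -1.53 and -1.47. The direction of S100a9 therefore rests on averaging the orientations. Anxa1, the anti-inflammatory annexin, had -0.40, -0.35 and -0.14 (mean -0.30 ± 0.14, adjusted p = 0.0318), and its call was lost without the pools of 6, without pair 1 of the pools of 3 and without loess.

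Dye made less difference to most other genes. With FR in Cy5, 32 of 36 genes were below 0 on all 3 fetal arrays, against 28.8% of all genes, and with FR in Cy3, 31 were, against 32%. The median ratios were -0.52 and -0.59. Lyz2 averaged -0.70 with FR in Cy5 and -1.50 with FR in Cy3. S100a8 averaged -0.27 with FR in Cy5 and -1.04 with FR in Cy3. None of the spots read for these genes was saturated. The orientations of Mpo and Ctsg opposed each other, at -0.32 and -0.22 with FR in Cy5 against 0.06 and 0.18 with FR in Cy3. Ncf4 and Anxa1, which passed as lower, averaged -0.335 and -0.476 with FR in Cy5 but -0.049 and -0.121 with FR in Cy3.

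**Figure D3:**
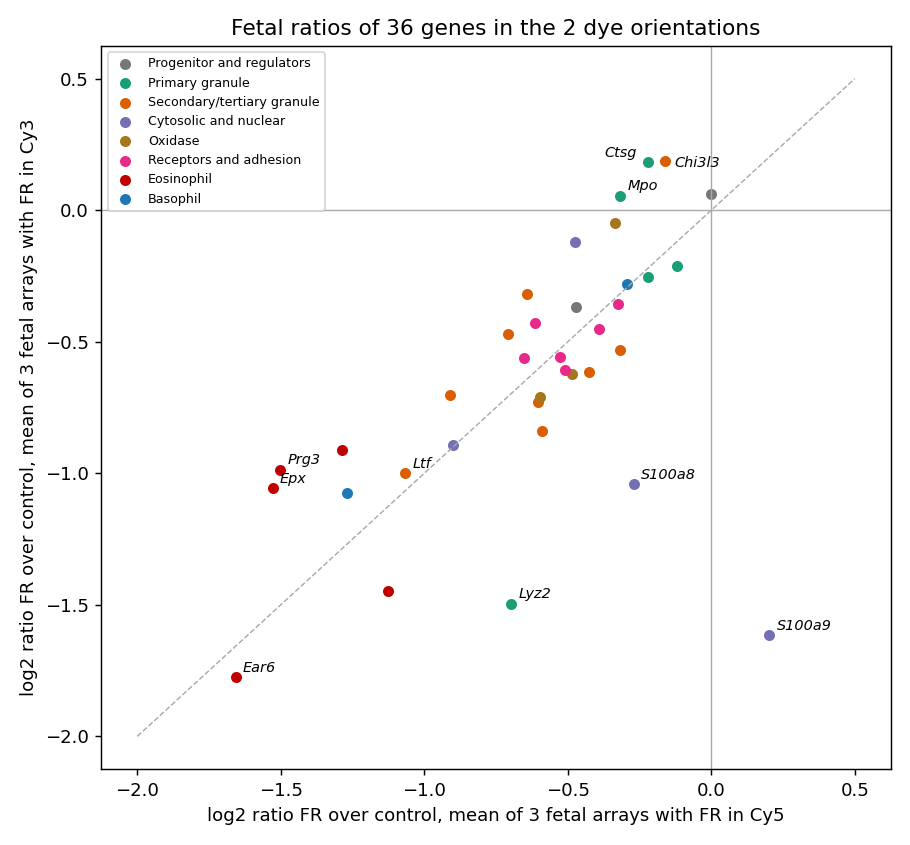
Mean log2 ratio of FR over control of 36 genes on the 3 fetal arrays with FR in Cy5 (horizontal axis) and on the 3 with FR in Cy3 (vertical axis); the dashed line marks equal values. Most genes lie near the line and below 0 on both axes, while S100a9 lies at 0.20 and -1.62.

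The 3 subunits of the phagocyte NADPH oxidase, which makes superoxide, all passed as lower, Ncf4 only narrowly, with a median of -0.55. Cybb, the membrane catalytic subunit, had ratios of -0.59, -0.68 and -0.39 (mean -0.55 ± 0.15, adjusted p = 0.00952). When spots marked as non-uniform were left out, Cybb was read from a dimmer probe with a mean of -0.30 (adjusted p = 0.0503). Ncf1, the organizing cytosolic subunit p47phox, had -0.35, -0.97 and -0.64, and its FR and control pools overlapped in level (mean -0.65 ± 0.31, adjusted p = 0.0206). Ncf4, the subunit p40phox, had -0.26, -0.11 and -0.21, a small fall to 87.5% of control (mean -0.19 ± 0.08, adjusted p = 0.0493). The Ncf4 call was lost with any pool pair left out (adjusted p from 0.0686 to 0.226), with the smaller offset (0.071), with the deposited ratios (0.0998) and without loess, where the mean was -0.33 (0.146).

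All 6 receptor and adhesion genes fell, with a median of -0.53. Fpr1, a receptor for bacterial formyl peptides, had ratios of -0.69, -0.79 and -0.35 (mean -0.61 ± 0.23, adjusted p = 0.0142). Its relative Fpr2 had -0.53, -0.75 and -0.35 (mean -0.54 ± 0.20, adjusted p = 0.0143). Itgam, the integrin chain CD11b, had -0.58, -0.61 and -0.49 (mean -0.56 ± 0.06, adjusted p = 0.00563). In these 3 genes every FR pool was below every control pool. Csf3r, the receptor of the granulocyte growth factor G-CSF, had -0.43, -0.62 and -0.51 (mean -0.52 ± 0.10, adjusted p = 0.00741). Its FR level in the pools of 6, 9.10, was above the control levels in the pools of 3, 8.59 and 8.51, so the diets overlapped across slides but not within a pair. The neutrophil surface protein Cd177 had -0.29, -0.51 and -0.47 (mean -0.42 ± 0.12, adjusted p = 0.0118), and the integrin-like chain Itgb2l averaged -0.34.

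The regulators split. Gfi1, a transcriptional repressor needed for neutrophil development, had ratios of -0.41, -0.45 and -0.40 and fell to 74.8% of control (mean -0.42 ± 0.03, adjusted p = 0.00728). Ms4a3, a membrane protein of granulocyte and monocyte progenitors, had -0.05, -0.01 and 0.16, on both sides of 0 (mean 0.03 ± 0.11, adjusted p = 0.738). Among 20 further factors and cytokine receptors of granulopoiesis, 5 fell and 4 rose, with a median of 0.04. Cxcr2, a chemokine receptor of mature neutrophils, fell most among those (-0.91 ± 0.23), followed by Cebpa, a factor of the granulocyte and hepatocyte lineages (-0.71 ± 0.37). Cebpd, a related factor, rose (0.70 ± 0.07) and had a ratio of 2.14 in the mothers. Of 10 stem and progenitor cell genes, whose median was 0.01, those that passed were 2 that rose, the factor gene Hlf (1.06 ± 0.11) and the receptor gene Kit (0.29 ± 0.06). In the mothers Hlf had 1.76 and Kit -0.19. Which liver cells carried the changes of Cebpd, Hlf and Kit was not tested.

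The eosinophil genes had the lowest median ratio of the 8 roles and the widest spread between pool pairs. Of the 5 tested, 4 fell and Prg2 missed the threshold, and their median ratio was -1.29. In the pools of 6 the median of the 5 was -2.15, and in the pools of 3 it was -0.914 and -0.998. Ear6, an eosinophil-associated RNase whose probe is printed above, had log2 levels of 9.23, 10.24 and 10.11 in the FR pools, against 12.17, 11.26 and 11.28 in the control pools. The pools of 6 had both the lowest FR level and the highest control level. Its mean ratio of -1.72 ± 1.07 was 30.4% of control (adjusted p = 0.035) and was -1.10 in the pools of 3 alone (adjusted p = 0.0497). Its relative Ear1 had ratios of -2.18, -0.75 and -0.92 (mean -1.29 ± 0.78, adjusted p = 0.0332), and in the pools of 3 alone it averaged -0.84 (adjusted p = 0.0515).

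Epx, the eosinophil peroxidase, had levels of 8.00, 8.54 and 8.42 in the FR pools, against 9.94, 9.45 and 9.45 in the control pools. It fell to 40.8% of control (ratios -1.94, -0.91 and -1.03, mean -1.29 ± 0.56, adjusted p = 0.0151). Prg3, a homologue of major basic protein, had ratios of -1.77, -0.965 and -0.998 (mean -1.24 ± 0.45, adjusted p = 0.0111). With the deposited ratios Epx averaged -1.55 and Prg3 -1.58. Prg2, the major basic protein itself, had -2.15, -0.33 and -0.82 (mean -1.10 ± 0.94, adjusted p = 0.0761). Its FR pools were all below its control pools, yet the pool pairs differed so much that the test was not passed. Probes of 6 further Ear genes were on the array. Those of Ear3, Ear7, Ear10 and Ear11 had means from -1.36 to -0.91 with adjusted p-values from 0.037 to 0.0467, and those of Ear4 and Ear5 were not well above background. The Ear10 and Ear3 probes share a run of 31 bases of 60 and are not separate measurements. The Ear7 probe, at chr14:52473799-52473858, lies beside that of Ear6 and may not be a separate measurement from it.

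Both basophil genes fell. Mcpt8, a protease of basophil granules, had log2 levels of 7.73, 7.52 and 7.09 in the FR pools, against 8.69, 8.70 and 8.47 in the control pools. All FR pools lay below all control pools, and Mcpt8 fell to 44.4% of control (ratios -0.96, -1.18 and -1.38, mean -1.17 ± 0.21, adjusted p = 0.00497). The size of the fall depended on the processing, since the Mcpt8 mean was -1.36 with the smaller offset and -1.64 with the deposited ratios. In contrast to the eosinophil genes, the strongest fall of Mcpt8 was not in the pools of 6. Cpa3, the carboxypeptidase that basophils share with mast cells, had -0.28, -0.41 and -0.17 (mean -0.29 ± 0.12, adjusted p = 0.0293). The Cpa3 call was lost without the pools of 6 (adjusted p = 0.133) and without pair 1 of the pools of 3 (adjusted p = 0.0885). Of 8 mast cell genes tested beside it, 1 fell and 1 rose, with a median of 0.05. The one that fell was Hdc, the histamine-forming enzyme also made by basophils (-0.75 ± 0.12), and the one that rose was Kit.

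Lists of other cell types are set against the 14.2% of all genes that fell and the 11.4% that rose. B-lineage genes fell in 10 of 12, with a median of -0.87, T and NK cell genes in 5 of 8, with a median of -0.43, and megakaryocyte genes in 3 of 8, with a median of -0.14. The B-cell coactivator gene Pou2af1 averaged -1.46 ± 0.48. Erythroid genes fell in 1 of 11, with a median of 0.10. Hepatocyte genes fell in 4 of 9 and rose in 2, with a median of 0.06. The labels were checked on Afp, which had a log2 level of 17.1 in control fetal liver and 7.85 in control maternal liver.

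In the mothers the same genes were mostly dim, and only some of them were lower. Of the 36 genes, 22 were above background, and 0 of these were past 2-fold lower on both arrays, where 1.17% of all 19507 genes were. Likewise 0 were past 2-fold higher, against 1% of all genes. With 1 pair of pools there is no replicate check. The ratio was below 0 on both arrays for 12 of the 22 (34.2% of all genes) and above 0 on both for 4 (33.1% of all genes). Lyz2 was the lowest, with -1.20 and -0.94 on its 2 arrays (mean -1.07), and the other Lyz2 probe had -0.63. Next came Ncf4 at -0.73, Fpr1 at -0.57 and Cybb at -0.55, although the other Cybb probe had -0.04. In the mothers 13 of the 15 monocyte and Kupffer cell genes were below 0, with a median of -0.42, and their part in these 4 ratios was not tested. Chi3l3 was highest, with 0.42 and 0.69 (mean 0.56), followed by S100a9 at 0.37 and S100a8 at 0.27. The 3 eosinophil genes above background, Ear1, Ear6 and Prg2, had 0.13, 0.11 and -0.09.

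The maternal ratio lay above the fetal ratio for 5 of the 22 genes, where it did for 2.05% of the 18969 genes tested for the difference (limma, adjusted p under 0.05). It lay below for 0, against 2.12% of all genes, and for 1 at an unadjusted p under 0.05. Ltf had a ratio of -0.10 in mothers and -1.03 in fetuses, a difference of 0.93 (adjusted p = 0.0393). Itgam had 0.06 in mothers and -0.56 in fetuses (difference 0.62, adjusted p = 0.0423). Pglyrp1 had 0.15 in mothers and -0.42 in fetuses (difference 0.58, adjusted p = 0.046). S100a8 had 0.27 in mothers and -0.66 in fetuses (difference 0.92, adjusted p = 0.0332), and S100a9 had 0.37 in mothers and -0.71 in fetuses (difference 1.08, adjusted p = 0.0134). For S100a9 the difference was -0.01 on the arrays with FR in Cy5 and 2.16 on those with FR in Cy3. The lone maternal pair is assumed to vary like the fetal pairs, and without the pools of 6, or without loess, 0 genes passed. In control mothers Ltf, Itgam and Pglyrp1 were dim, at log2 levels of 7.43, 7.33 and 7.99. The part of this low signal in their differences was not tested. By their brightest probes, Lyz2 and Cybb had differences of 0.02 and 0.00. Their other probes, which were dimmer in fetal liver (mean log2 intensity 12.02 against 16.2 for Lyz2, 7.99 against 11.24 for Cybb), differed more. These dimmer probes had -0.629 in mothers and -0.997 in fetuses for Lyz2, and -0.039 in mothers and -0.295 in fetuses for Cybb.

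**Figure D4:**
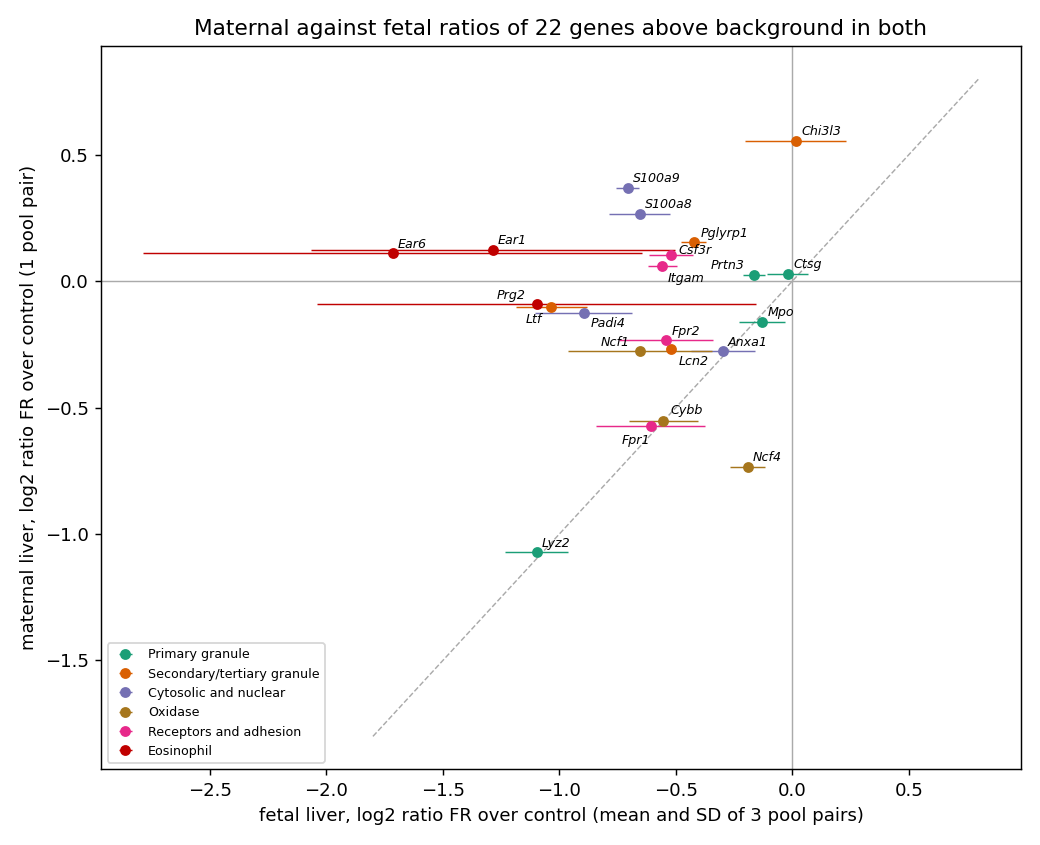
Maternal log2 ratio of FR over control (vertical axis, 1 pool pair) against the fetal ratio (horizontal axis, mean and SD of 3 pool pairs) of the 22 genes above background in both; the dashed line marks equal ratios. Lyz2, Cybb and Fpr1, each by its brightest probe, lie on the line below 0, and S100a8, S100a9, Ltf, Ear1 and Ear6 lie well above it. Ear1 and Ear6, whose fetal spread is wide, did not pass the test of the difference.

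Control livers show where these genes are expressed. Of the 36 genes, 35 had a higher level in control fetal liver than in control maternal liver (limma, adjusted p under 0.05), against 18.5% of 20854 genes, and 0 had a lower one, against 17.4%; 0 were lower at an unadjusted p under 0.05. Probes entered this comparison if they were well above background on all fetal or all maternal control arrays. Only 22 of the 36 genes were above background in the mothers. The others entered through fetal liver alone, so that rule set their direction and they add no support to the count. The maternal side was 1 pool, so the test holds no spread between maternal pools. S100a8 was 265-fold higher in fetal liver, Ltf 209-fold, Mpo 190-fold and S100a9 133-fold. Where the maternal probe was not well above background the fold is a bound, and Camp was at least 290-fold, Ngp at least 266-fold and Ms4a3 at least 49.4-fold higher in fetal liver. Among genes above background on both maternal arrays, the smallest folds of the 35 were those of Fpr1 (1.94) and Cybb (3.15). The exception was Csf3r, at a log2 level of 8.88 ± 0.57 in the fetal pools and 8.96 in the maternal pool (adjusted p = 0.901). The count of 35 was the same on slide 1 alone, past 2-fold.

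**Figure D5:**
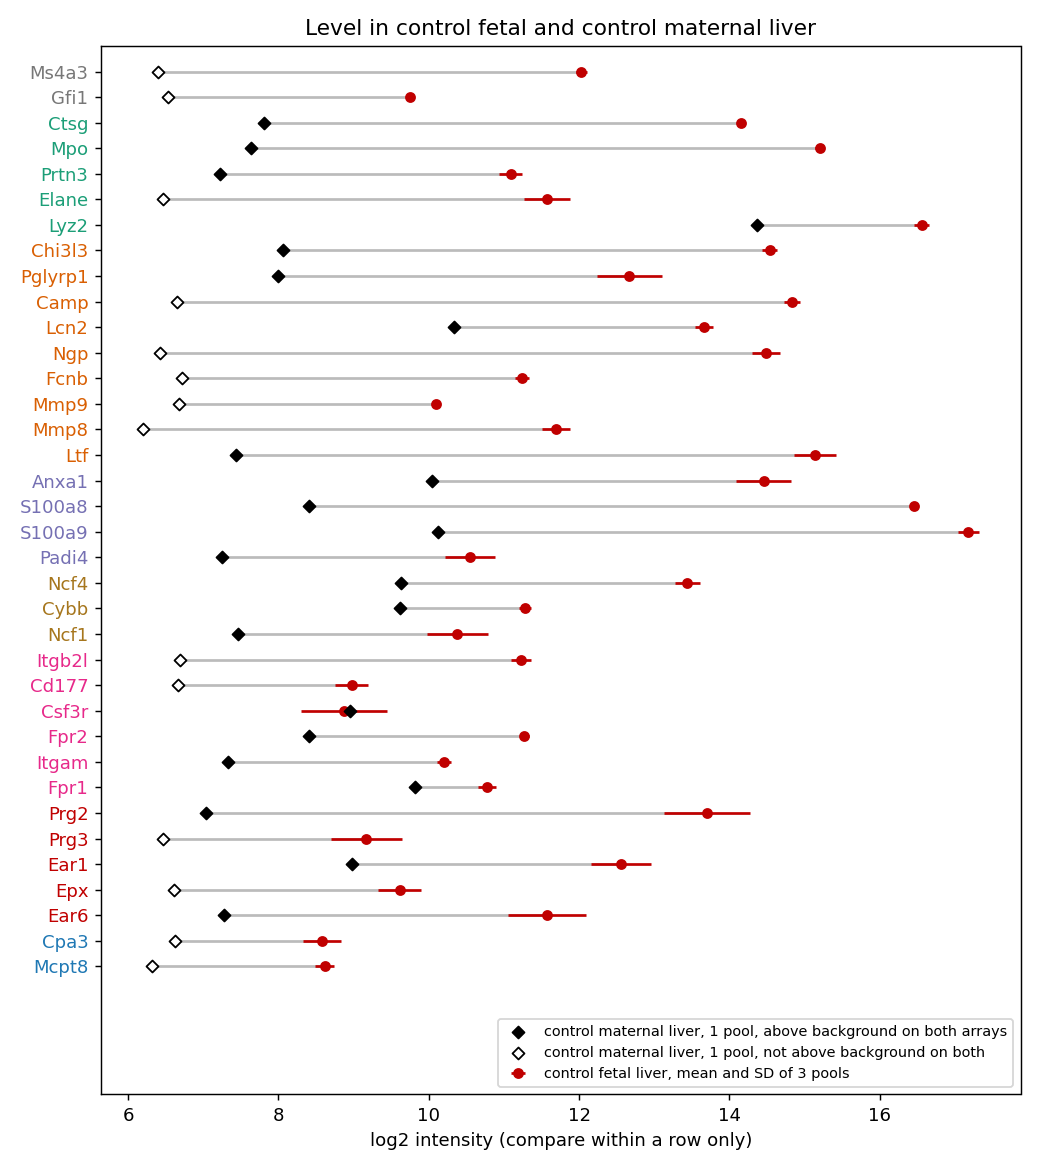
Log2 intensity (horizontal axis) of 36 genes in control fetal liver (red, mean and SD of 3 pools) and control maternal liver (diamonds, 1 pool; open where not above background on both arrays), to be compared within a row only. The fetal point lies to the right in every row but that of Csf3r.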

How the data were processed

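RNA of liver pools (1000 ng each, per the labels) was measured on 8 2-colour Agilent arrays. Per the file headers, the deposited files of the scanner give Cy3 and Cy5 intensity per spot, from Feature Extraction 9.5.3.1 on slide 1 (also named in the submitters' processing notes) and 11.0.1.1 on slide 2. The deposited value table holds log10 ratios of Cy5 over Cy3, not turned for the dye exchange, which matched the scanner files' processed red over green signals within 5e-08, with medians per array from -0.0184 to 0.0155. How the authors made it beyond that is not given in the sources used here.

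From the intensities, log2 ratios were computed here, where the deposited values are log10. Mean spot signal on slide 1 and median on slide 2 was corrected with normexp (offset 50, limma 3.58.1, R 4.3.3), then loess within each array with control spots at weight 0. Population outliers and control spots were left out, and saturated and non-uniform spots were kept. Non-uniform flags marked 78.5% to 87.2% of the brightest 10% of spots on slide 1 and almost none on slide 2. Ratios were turned to FR minus control, and both arrays of a dye exchange were averaged, so n counts pool pairs. Their ratios correlated across all genes at 0.60 to 0.84. Probes entered a fit of ratios if every array of that fit had them well above background for at least 1 diet. For the control levels, all fetal or all maternal control arrays were enough. A gene was read from its brightest kept probe. RefSeq gave names to 26918 of 41174 probes through the accession, to 5082 through the symbol and to 817 through an older symbol, and 8357 kept the array's name. All arrays had 25468 probes above background in both channels, and the number of arrays limits the precision.

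Fetal ratios were tested against 0, and maternal against fetal ratios and control levels by a group term, with limma (lmFit, eBayes, Benjamini-Hochberg over all genes, threshold 0.05). Levels are single-channel log2 values after Aquantile. A fold is a bound where the mother's probe was not well above background on either array. On simulated data the fetal fit recovered 73% of changes of 1 log2 unit and 41% of 0.5 among 21097 genes, with 3 false calls, and the difference fit recovered 38% of changes of 1 among 18969, with 2. These simulations changed 200 genes in independent noise, whereas 3005 genes were lower and 2399 higher in the real fetal fit. The simulated rates therefore need not hold for the real fits. The genes, the lists set beside them and the tests were chosen with earlier results of these data known, so the direction of the granulocyte genes is not independent evidence. Values are given for up to 5 genes of each role by size, and up to 3 of each other list. The settings varied were the offset, background correction, loess, scaling between arrays, the deposited ratios, the probe filter, non-uniform spots, the choice of probe and each pool pair left out. Median signal on all arrays and each dye orientation alone were added after the data were seen.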

Additional observations from a re-analysis of the deposited data

Results flagged for a closer look

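In 5 genes the response to FR differed between mothers and fetuses by the test of the difference itself (limma, 3 fetal pool pairs and 1 maternal pair). The maternal minus fetal log2 ratio was 1.075 for S100a9, 0.933 for Ltf, 0.923 for S100a8, 0.619 for Itgam and 0.576 for Pglyrp1. Split by dye, the difference was 0.96 with FR in Cy5 and 0.90 with FR in Cy3 for Ltf, 0.63 and 0.52 for Pglyrp1, 0.43 and 0.81 for Itgam, 0.48 and 1.37 for S100a8, and -0.01 and 2.16 for S100a9. All 5 were dimmer in control maternal than in control fetal liver, and the maternal value is 1 pair of pools without a replicate. Control levels of Ltf, Itgam and Pglyrp1 were 7.43, 7.33 and 7.99 in mothers, against 15.14, 10.2 and 12.67 in fetuses. Fcnb, which was not well above background in mothers, had 6.72 there. The part of low maternal signal in these differences was not tested.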

How the results depend on the processing

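The count of 30 granulocyte genes lower in FR fetal liver was 13 of the 14 still tested when non-uniform spots were left out, which removes most bright spots of slide 1, and 0 when ratios were scaled between arrays. Under the 7 other settings with all pool pairs it was 28 to 31, and leaving out a pool pair it was 3 to 28, lowest without the pools of 6. The count of genes higher was 0 in every setting run, and the count of genes higher in control fetal than in control maternal liver was 35. The median ratio moved to -0.692 without loess and ranged from -0.614 to -0.504 with a pool pair left out. The cause was not tested. The 5 genes whose maternal and fetal ratios differed became 0 with non-uniform spots left out, without loess or with scaling, 8 with the deposited ratios or without the filter on dim probes, and 0 to 5 with a fetal pool pair left out (3 without pair 1 of the pools of 3). With scaling, 1 gene was past 2-fold lower in mothers, against 0. The sign of Chi3l3 turned without loess (-0.113), with the deposited ratios (-0.031), with FR in Cy5 alone (-0.16) and with a pool pair left out (-0.065 to 0.137). That of Ms4a3 turned without loess (-0.116), with FR in Cy5 alone (-0.002) and with a pool pair left out (-0.032 to 0.071). Ctsg turned with scaling (0.029), with FR in Cy3 alone (0.183) and with a pool pair left out (-0.069 to 0.013), Mpo with FR in Cy3 alone (0.056), and S100a9 with FR in Cy5 alone (0.203). The fetal test was already paired by diet, since each array set an FR pool against its control pool. No pairing of mothers with fetuses was possible, because there was only 1 maternal pool pair. The slide as a random block could not be fitted, since the correlation had no estimate with 3 pool pairs. The 3 pool pairs limit the calls of small ratios, and dim maternal probes limit the comparison to 22 genes.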
